A study of Mus musculus with 9 samples.

Results

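Glutamate receptors carry most fast excitation in the hippocampus. The genes described here are the 37 listed genes for AMPA, NMDA, kainate, delta and metabotropic glutamate receptors and for the auxiliary proteins of AMPA and kainate receptors, taken by gene name out of 57180 genes in a table of hippocampal RNA. They comprise 4 AMPA, 7 NMDA and 5 kainate receptor subunits, 1 delta receptor subunit, 7 metabotropic receptors, 6 TARPs (transmembrane AMPA receptor regulatory proteins), 2 cornichons, 3 Shisa proteins and the kainate receptor partners Neto1 and Neto2. RNA came from the hippocampus of 9 male mice, 3 in each of 3 groups. Con mice were C57BL/6J and received vehicle. Model mice were BTBR T+ Itpr3tf/J, here BTBR, a strain in wide use as an autism model, and also received vehicle. The third group, MAN@SKI II, was of the BTBR strain and received the agent of that name, per the labels a brain-targeted nanomicelle that inhibits S1P (sphingosine-1-phosphate), at 40 mg/kg per day by the tail vein for 7 days from 5 weeks of age. Hippocampi were collected from all mice at 6 weeks, following behavioural tests. The vehicle is saline in one label field and PBS in another, no C57BL/6J mice received MAN@SKI II, and the strains differ at many loci besides the Itpr3tf allele in the BTBR strain name.

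AMPA receptors are tetramers of GluA1 to GluA4 (genes Gria1 to Gria4) that open within milliseconds of glutamate release. NMDA receptors pair the obligatory GluN1 (Grin1) with GluN2 or GluN3 subunits and admit calcium when the cell is already depolarised, which makes them triggers of synaptic plasticity. Kainate receptors tune transmission on both sides of the synapse, above all at mossy fibres, the axons of dentate granule cells, and metabotropic receptors signal through G proteins. Auxiliary subunits such as TARPs, cornichons, Shisa and Neto proteins set where the channels go and how fast they close.

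The pore loops of these subunits are closely related, and the codon at the Q/R site of the pore shows both how alike the genes are and which position RNA editing changes. The following windows are the reference coding sequence of GENCODE M21 on GRCm38, 33 bases each, written 5′ to 3′ with the Q/R codon in capitals. They lie at chr11:57243079-57243111 (+) for Gria1, chr3:80706896-80706928 (-) for Gria2, chrX:41610250-41610282 (+) for Gria3 and chr9:4464122-4464154 (-) for Gria4, while those of Grik1 and Grik2 span exons.
Gria1: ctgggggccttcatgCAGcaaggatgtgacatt
Gria2: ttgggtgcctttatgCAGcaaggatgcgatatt
Gria3: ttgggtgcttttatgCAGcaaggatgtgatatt
Gria4: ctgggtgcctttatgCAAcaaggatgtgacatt
Grik1: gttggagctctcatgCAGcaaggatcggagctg
Grik2: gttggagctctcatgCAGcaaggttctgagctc
Against Gria2, the window of Gria1 differed at 5 bases, that of Gria3 at 2 and that of Gria4 at 4. The windows of Grik1 and Grik2 differed from each other at 3 bases. In the genome the codon encodes glutamine in all 6 genes, and the enzyme Adarb1 (ADAR2) edits it to an arginine codon in Gria2 RNA, which makes AMPA receptors containing GluA2 nearly impermeable to calcium. Counts per gene cannot tell edited from unedited RNA, so editing was not measured here. Over whole transcripts, 2 of the 37 genes had a near-identical copy elsewhere (97% identity or more, along 150 or more bases and 50% or more of the shorter transcript). For Grin2a this was Gm7328, which was counted 206 to 304 times per library against 4235 to 5388 for Grin2a, and for Grm6 it was Gm12660, which had no counts.

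Libraries held 14751054 to 18827093 counts, so that 3 counts correspond to 0.159 to 0.203 CPM (counts scaled to a fixed library total). All 8 genes of a hippocampal neuron list were present in every library, with a summed level of 6990.2 to 7775 CPM. The library MAN@SKI II 2 stood apart from the others. Its mitochondrially encoded genes took 9.63% of counts against 6.26% to 7.15% in the other 8 libraries, and it lay at 49.9 on the second principal component against -16.4 to 4.17. Of the 35 listed genes that passed the filter on low counts, it had the highest value of all 9 libraries in 19 and the lowest in 3, that is 62.9% of these genes against 47.5% of all genes tested. Whether RNA quality or handling differed in that mouse was not tested, and values without it are given where it moved a result.

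On a scale that divides counts by gene length (the deposited FPKM), Cnih2 was the most abundant of the 37 genes, with a mean of 246 FPKM over the 9 libraries. CNIH2 is a cornichon that slows AMPA receptor closing. It was followed by Gria1 (98.1 FPKM), the type II TARP Cacng7 (48.1), Gria2 (44.6), the hippocampal TARP Cacng8 (43.2) and Grik5 (40.0). The gene lengths behind these FPKM values were worked back from counts and FPKM, for example 21811 bases for Gria2. Genes given a long length appear lower, and how the lengths were defined is not given in the sources used here. In Con, Gria1 held 59.9% ± 0.348 (SD, n = 3) of the summed AMPA subunit FPKM, Gria2 26.8% ± 0.189, Gria3 8.45% ± 0.145 and Gria4 4.86% ± 0.127. Grin1 held 40.5% ± 3.53 of the NMDA subunit FPKM, or 62.2% when the length of the longest coding transcript was used instead. Of the NMDA subunit FPKM, Grin2b held 23.9% ± 2.04, Grin2c 16.1% ± 0.862 and Grin2a 13.9% ± 0.357. By the longest coding transcript these 3 shares were 13.5%, 8.13% and 10.7%, so that the order of Grin2a and Grin2c turned. Among kainate subunits, Grik5 led with 62.9% ± 0.516, and among metabotropic receptors Grm5 led with 41.0% ± 1.74. For the TARPs, Cacng7 (39.9% ± 0.775) stood above Cacng8 (36.5% ± 0.959), an order that turned with the longest coding transcript as length (33.2% and 46.4%).

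2 genes lay at the limit of detection and were not tested. Grm6, the receptor of retinal ON bipolar cells, had no count in 8 libraries and 2 counts in MAN@SKI II 3. Grin3b, a GluN3 subunit known mainly from motor neurons, had 0 to 7 counts per library. All other listed genes were tested, from Grm8 at 5.78 to 7.37 CPM in the group means up to Gria1 at 1160.1 to 1193 CPM.

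Vehicle-treated BTBR mice differed from C57BL/6J mice in 4 of the 35 tested genes. Grin2d and Cacng5 RNA were higher in Model, by 1.35-fold and 1.58-fold, and Grik2 and Grm2 RNA were lower, at 0.760 and 0.770 of the Con level. The 4 genes come from 4 different receptor classes (NMDA, TARP, kainate and metabotropic). At an adjusted p under 0.05 in edgeR's quasi-likelihood test with Benjamini-Hochberg adjustment over all 17550 genes tested, 7.64% of all genes were called, 3.11% as higher and 4.52% as lower, so 4 of 35 is a share close to the background. DESeq2, which called 8.98% of all genes, and limma-voom, which called 7.60%, called the same 4 genes, and the 4 were also the only listed genes with an unadjusted p under 0.05 in edgeR (19.6% of all genes). Over the 35 genes, 20 fold changes were above 0 and 15 below, with a median log2 fold change of 0.01, against 0.00 over all genes. The p-values measure the spread between these libraries, which the labels call biological replicates.

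Grin2d encodes GluN2D, a subunit that gives NMDA receptors slow closing and weak magnesium block and that is known in the adult hippocampus mainly from interneurons. The gene lies on chromosome 7 (45481307 to 45527802, minus strand, GRCm39). Its level was 22.3, 21.8 and 21.7 CPM in the 3 Con libraries, 29.2, 28.5 and 31.2 CPM in Model, and 30.7, 28.4 and 29.8 CPM in MAN@SKI II. Every BTBR library, treated or not, lay above every Con library. The log2 fold change of Model against Con was 0.44 ± 0.08 (SE), with an adjusted p of 0.00592, and all 17 alternative analyses called it (0.40 to 0.46). The 10 interneuron markers showed no call by edgeR (DESeq2 and limma-voom called 0 as well), with a summed level of 1085 to 1149.8 CPM in Con and 1054 to 1145 CPM in Model. Their fold changes went in both directions: Npy, Sst and Lhx6 had -0.50, -0.31 and -0.27, and Slc32a1 had 0.24. An unadjusted p under 0.05 was found for 4 of the 10 (19.6% of all genes), and 6 had groups that did not overlap (32.3% of all genes), 2 higher and 4 lower in Model. Grin2d overlaps Kdelr1 on the other strand over 5607 bases, and the strand setting of the counting is not given in the sources used here. Kdelr1 had 149% as many counts as Grin2d. It was at 38.6 ± 1.19 CPM (SD, n = 3) in Con and 41.0 ± 1.47 CPM in Model (log2 fold change 0.09 ± 0.07, adjusted p = 0.589). Its Model libraries all lay above its Con libraries (groups did not overlap, in either direction, for 32.3% of all genes). Whether reads of Kdelr1 enter the counts of Grin2d was not tested. Gm45441, also on the other strand, overlaps Grin2d over 3367 bases and had 12.2% as many counts. It was at 3.85 ± 2.78 CPM (SD, n = 3) in Con and 3.00 ± 2.13 CPM in Model (log2 fold change -0.35 ± 0.75, adjusted p = 0.871).

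Cacng5 encodes TARP γ-5, a type II TARP that binds AMPA receptors of particular subunit make-up. It lies on chromosome 11 (107765431 to 107805881, minus strand, GRCm39). Its level was 15.7, 13.5 and 12.8 CPM in Con, 19.1, 24.7 and 22.3 CPM in Model and 21.6, 27.0 and 17.6 CPM in MAN@SKI II. The lowest BTBR library was above the highest Con library, but the spread within the BTBR groups was wide. The log2 fold change of Model against Con was 0.66 ± 0.16 (SE), the largest in size of the 35 genes (adjusted p = 0.0280). The call was lost without Con 2, Con 3, Model 2 or Model 3, with an adjusted p of up to 0.112.

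Grik2 encodes GluK2, a pore-forming kainate receptor subunit of mossy fibre synapses. It lies on chromosome 10 (48970929 to 49664862, minus strand, GRCm39). Its level was 96.8, 92.1 and 97.2 CPM in Con, 78.8, 64.7 and 73.9 CPM in Model and 78.3, 89.7 and 78.7 CPM in MAN@SKI II. All BTBR libraries lay below all Con libraries, with MAN@SKI II 2 nearest to Con. In Model the log2 fold change was -0.40 ± 0.09 (SE, adjusted p = 0.0158), and the call was lost without Con 1, Con 3, Model 2 or Model 3 (adjusted p up to 0.0646).

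Grm2 encodes mGlu2, a Gi/o-coupled receptor on glutamatergic terminals that lowers release and is dense on mossy fibres. It lies on chromosome 9 (106520294 to 106533281, minus strand, GRCm39). Its level was 69.4, 66.0 and 60.3 CPM in Con, 49.7, 45.3 and 55.5 CPM in Model and 49.2, 54.3 and 56.0 CPM in MAN@SKI II. Here too no BTBR library reached the lowest Con library. The log2 fold change of Model against Con was -0.38 ± 0.09 (SE, adjusted p = 0.0303), and without Con 1, Con 2, Model 1 or Model 2 it was no longer called (adjusted p up to 0.130).

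Markers of dentate granule cells, which express both Grik2 and Grm2, were also lower in Model. The marker lists were chosen with earlier results of these data known. Of 9 markers, 3 were called lower in Model and 9 of 9 fold changes were below 0 (median log2 -0.42). For this and the marker lists that follow, the share of all genes called in Model against Con was 4.52% lower and 3.11% higher. In MAN@SKI II against Con, 3 dentate granule cell markers were called lower (4.70% of all genes). There 8 fold changes were below 0 and 1 above (median log2 -0.25). The summed level of the 9 markers was 618 to 686 CPM in Con, 415 to 529 CPM in Model and 500.4 to 581 CPM in MAN@SKI II, and no marker was at 0 in all libraries. Of 11 CA pyramidal cell markers 2 were called higher and 2 lower in Model, with a summed level of 838 to 912 CPM in Con and 964 to 1125 CPM in Model. Oligodendrocyte markers, 7 of 10 called lower, summed to 5039 to 5840.1 CPM in Con and 3202 to 3528 CPM in Model. Of the marker lists, the largest median fold change was that of the 10 choroid plexus markers, of which 5 were called lower and 10 were below 0 (median log2 -3.27), with a summed level of 919 to 2478 CPM in Con, 43.5 to 305 CPM in Model and 50.3 to 359 CPM in MAN@SKI II. Of the 10 astrocyte markers 3 were called lower in Model (summed level 4655 to 4709 CPM in Con and 4175 to 4360 CPM in Model), and of the 10 microglia markers likewise 3 (359 to 395 CPM and 302 to 309 CPM). The part of these markers in the receptor results was not tested, and in bulk tissue fewer cells of a type and less RNA per cell cannot be told apart.

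**Figure D1:**
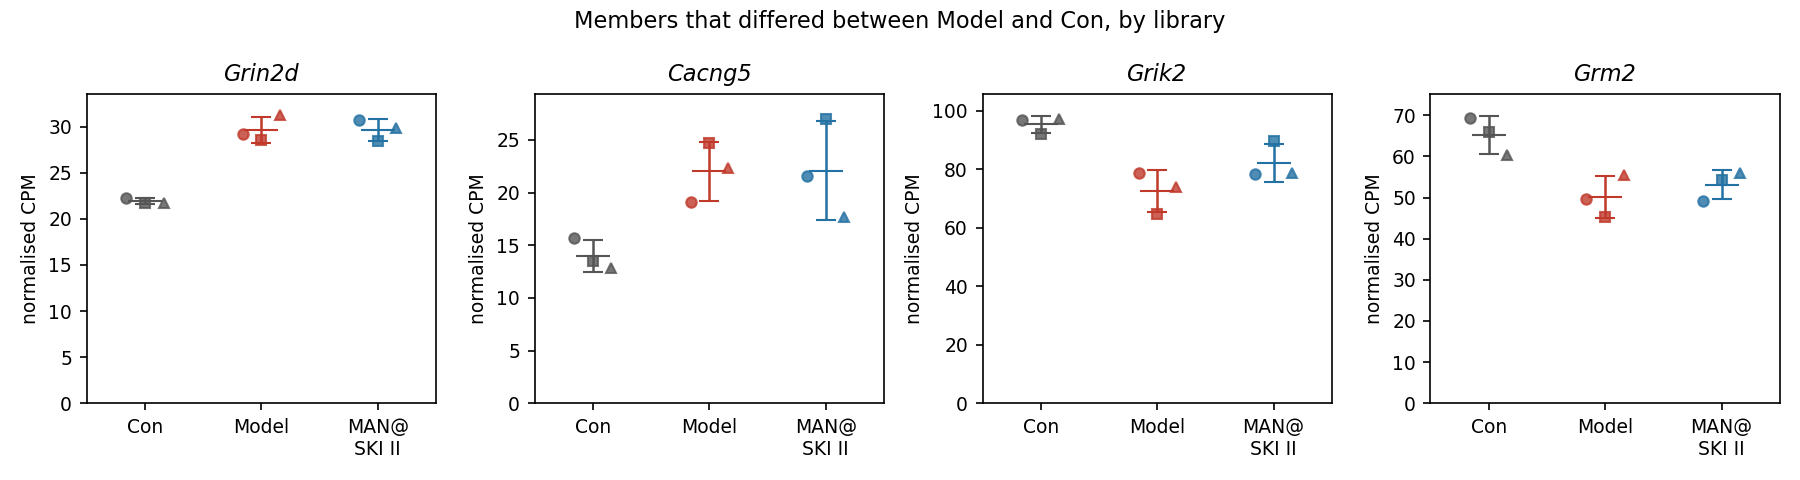
Normalised level (CPM) of Grin2d, Cacng5, Grik2 and Grm2 in each of the 9 libraries, with the mean (wide bar) and SD (whiskers) of 3 libraries per group and circles, squares and triangles for replicates 1, 2 and 3. For each gene the 3 Con libraries and the 3 Model libraries do not overlap, and the MAN@SKI II libraries lie on the Model side of Con.

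The promoters of these 4 genes are shown because their RNA differed between the strains. The sequences are RefSeq's reference on GRCm38.p6, 250 bases before to 50 bases after the annotated start, 5′ to 3′ on the gene's own strand, with GC boxes (GGGCGG, or CCGCCC where it lies on the other strand) in capitals. All 4 are on the minus strand, at chr7:45866632-45866931 for Grin2d, chr11:107915006-107915305 for Cacng5, chr10:49788705-49789004 for Grik2 and chr9:106656060-106656359 for Grm2. The BTBR sequence was not used here.
Grin2d: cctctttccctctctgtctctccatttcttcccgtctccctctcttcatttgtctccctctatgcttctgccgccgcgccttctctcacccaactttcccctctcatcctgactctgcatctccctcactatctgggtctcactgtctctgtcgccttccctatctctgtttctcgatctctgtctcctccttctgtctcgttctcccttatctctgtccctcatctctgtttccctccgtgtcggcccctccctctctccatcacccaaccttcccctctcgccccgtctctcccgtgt
Cacng5: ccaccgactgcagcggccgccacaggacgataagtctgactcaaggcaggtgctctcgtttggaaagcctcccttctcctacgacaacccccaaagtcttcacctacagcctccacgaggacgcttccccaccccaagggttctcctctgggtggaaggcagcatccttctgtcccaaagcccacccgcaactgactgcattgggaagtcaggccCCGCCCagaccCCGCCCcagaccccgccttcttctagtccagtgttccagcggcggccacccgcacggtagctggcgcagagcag
Grik2: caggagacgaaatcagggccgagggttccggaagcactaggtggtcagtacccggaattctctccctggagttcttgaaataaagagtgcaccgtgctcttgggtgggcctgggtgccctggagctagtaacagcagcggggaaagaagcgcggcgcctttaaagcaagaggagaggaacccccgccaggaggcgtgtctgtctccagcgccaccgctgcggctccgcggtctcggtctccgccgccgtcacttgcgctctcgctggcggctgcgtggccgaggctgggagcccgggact
Grm2: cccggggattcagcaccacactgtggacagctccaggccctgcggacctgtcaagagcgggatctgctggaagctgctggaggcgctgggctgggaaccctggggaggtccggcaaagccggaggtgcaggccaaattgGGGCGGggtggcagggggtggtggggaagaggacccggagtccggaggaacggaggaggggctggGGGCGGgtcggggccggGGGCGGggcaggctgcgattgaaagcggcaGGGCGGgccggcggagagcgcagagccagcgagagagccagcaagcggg
Grm2 held 4 GC boxes and Cacng5 2, while the windows of Grin2d and Grik2 held 0. On either strand, a GC box was found in 35.7% of the 32851 promoters of this length that RefSeq lists, and in 16 of 29 windows of the 24 listed genes that could be matched. The TATA box TATAAA was in none of these 4 windows on either strand and in 13.6% of all promoters. For Cacng5 the table gives a further start, at chr11:107911313-107911612, whose window held 0 GC boxes.

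The AMPA receptor subunits showed no call between Con and Model. Gria1 was at 1136, 1214 and 1194 CPM in Con, 1159.7, 1167 and 1154 CPM in Model and 1158, 1279.5 and 1141 CPM in MAN@SKI II. Its log2 fold change of Model against Con was -0.03 ± 0.06 (SE), with a 95% interval of -0.15 to 0.10. Model libraries lay inside the Con range, and the highest value was that of MAN@SKI II 2. Gria2 was at 923, 981 and 989 CPM in Con, 992, 948 and 963 CPM in Model and 920.4, 1154 and 899.8 CPM in MAN@SKI II, a log2 fold change of 0.01 ± 0.09 in Model (interval -0.19 to 0.20). Gria3 changed by -0.10 and Gria4 by 0.00 on the same scale.

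Grin1 had the largest standard error among the NMDA receptor subunits tested. It was at 521, 573 and 434 CPM in Con, 607, 629 and 438 CPM in Model and 598, 439 and 453 CPM in MAN@SKI II. Both the high and the low values occurred in every group, and the log2 fold change of Model against Con was 0.13 ± 0.17 (SE, interval -0.26 to 0.53), or 0.03 to 0.28 when single libraries were left out. Grin2a, which encodes the GluN2A that becomes frequent as synapses mature, was at 297, 307 and 287 CPM in Con, 292, 296 and 284 CPM in Model and 286, 299 and 284 CPM in MAN@SKI II. These 9 values spread little, and the log2 fold change in Model was -0.03 ± 0.05 (interval -0.15 to 0.09). Grin2b, which encodes the GluN2B that dominates early in life, was at 582, 626 and 646 CPM in Con, 618, 656 and 564 CPM in Model and 595, 660.2 and 568 CPM in MAN@SKI II, with a log2 fold change of -0.01 ± 0.08 in Model. Grin2c (-0.25 ± 0.15, with 63.7 ± 14.0 CPM (SD, n = 3) in Model) and Grin3a (0.15 ± 0.10) were not called.

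Of the other kainate receptor subunits, Grik1 had a log2 fold change of 0.25 ± 0.13 (SE) in Model, Grik3 0.16 ± 0.10, Grik4 0.01 ± 0.10 and Grik5 0.07 ± 0.07, and Grid1, the delta receptor subunit that binds cerebellins, had -0.01 ± 0.08. None of these was called by edgeR, DESeq2 or limma-voom (0 of 5 had an unadjusted p under 0.05), although the groups did not overlap for Grik3 and Grik5. Grm5, the Gq-coupled receptor of postsynaptic spines, was at 287, 297 and 302 CPM in Con, 316, 337 and 314 CPM in Model and 321, 416 and 290.1 CPM in MAN@SKI II. Its Model libraries lay above all Con libraries, yet the log2 fold change of 0.12 ± 0.11 was not called (adjusted p = 0.622). Grm3, the partner of Grm2 in the same receptor group and largely astrocytic, had -0.21 ± 0.14, and the Gi/o-coupled Grm4, Grm7 and Grm8 had 0.07 ± 0.13, 0.03 ± 0.08 and -0.19 ± 0.18.

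Most auxiliary subunits had small fold changes as well. Cacng8 was at 153, 166 and 167 CPM in Con and 165, 172 and 152 CPM in Model, a log2 fold change of 0.01 ± 0.12 (SE). Cnih2 was at 483, 517 and 507 CPM in Con and 505, 531 and 505 CPM in Model, with 0.03 ± 0.06. The groups overlapped in both genes. Cacng2 (stargazin), Cacng3, Cacng4 and Cacng7 had -0.06 ± 0.07, -0.07 ± 0.09, 0.18 ± 0.11 and -0.11 ± 0.06. Shisa6, Shisa7 and Shisa9, which bind AMPA receptors and in the case of Shisa7 also GABA-A receptors, had 0.19 ± 0.12, 0.17 ± 0.11 and 0.11 ± 0.08. Cnih3 had -0.14 ± 0.27, and its highest library was Con 1 at 79.1 CPM against 37.1 to 57.4 CPM in the other 8. In Cacng2, the overlapping antisense gene A730060N03Rik, with 5.20% as many counts, was called higher in Model (0.95 ± 0.21, adjusted p = 0.0177), and reads of the 2 cannot be told apart without strand. In all, 27 of the 35 listed genes had a log2 fold change within 0.2 of 0, as did 10689 of all 17550 genes tested. The median standard error was 0.096 for the listed genes and 0.139 over all genes. Groups did not overlap for 11 listed genes (8 higher and 3 lower in Model), against 32.3% of all genes.

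**Figure D2:**
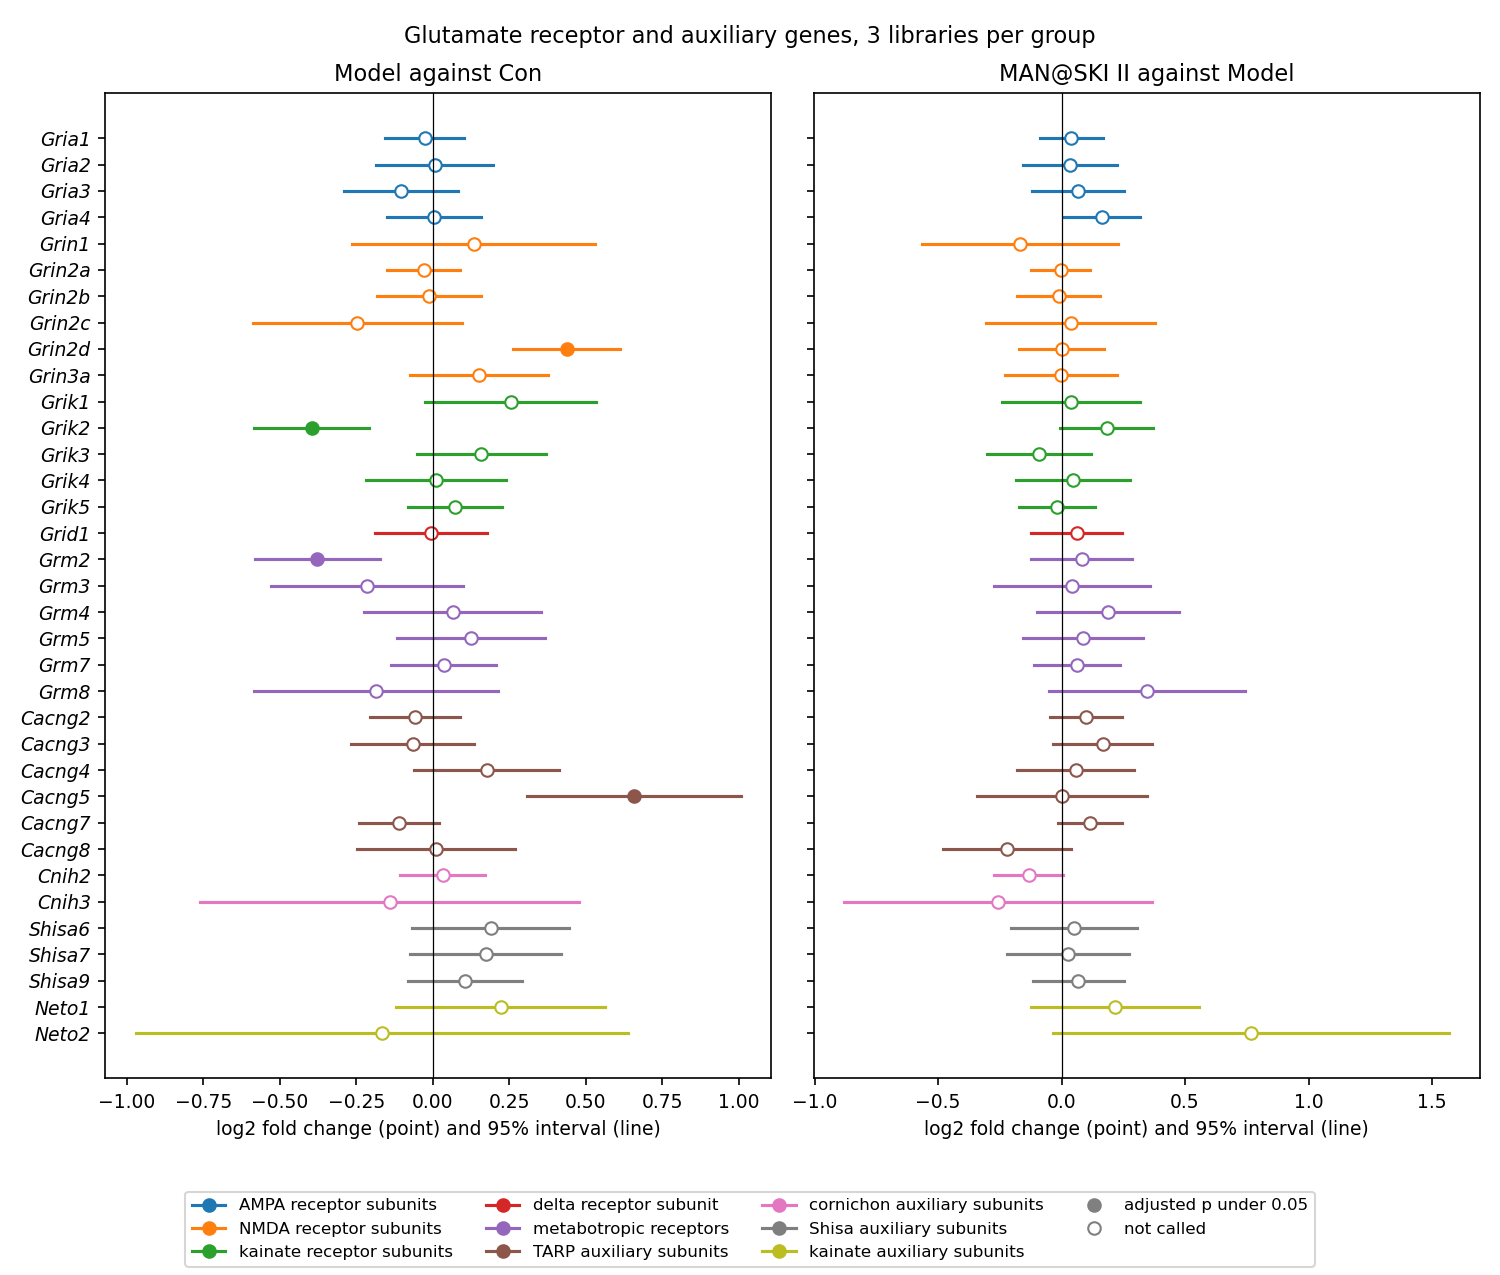
log2 fold change (point) and 95% interval (line) of the 35 tested genes for Model against Con (left) and MAN@SKI II against Model (right), coloured by receptor or auxiliary family; filled points had an edgeR adjusted p under 0.05. Filled are Grin2d, Grik2, Grm2 and Cacng5 on the left, and none on the right.

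Within the BTBR strain, no listed gene passed the threshold between MAN@SKI II and Model. edgeR called 0 of 35, as did DESeq2 and limma-voom, and 1 gene had an unadjusted p under 0.05. Over all genes edgeR called 0 (0.00%), with 4.82% at an unadjusted p under 0.05, limma-voom called 0 and DESeq2 called 15 (0.0856%). Of the 4 genes that differed between the strains, Grin2d and Cacng5 each had a log2 fold change of 0.00 under treatment, with 95% intervals of -0.17 to 0.17 and -0.34 to 0.34. Grm2 had 0.08 ± 0.09 (SE, interval -0.12 to 0.29), and Grik2 had 0.18 ± 0.09 (interval -0.01 to 0.37, unadjusted p = 0.0567). Without MAN@SKI II 2 these values were 0.03 for Grin2d, -0.17 for Cacng5, 0.07 for Grm2 and 0.12 for Grik2. The median standard error of the listed genes was 0.096 on the log2 scale, against 0.139 over all genes. This comparison shares the Model libraries with the one above.

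Gria4, the AMPA subunit with the fastest kinetics and strong expression in interneurons, had the smallest p of the listed genes under treatment. It was at 69.0, 74.1 and 78.2 CPM in Model and 80.0, 87.7 and 80.0 CPM in MAN@SKI II, against 72.7, 73.4 and 74.5 CPM in Con. The treated libraries lay above the others, with a log2 fold change against Model of 0.16 ± 0.07 (SE, unadjusted p = 0.0398, adjusted p = 0.914). Neto2, a CUB-domain partner of kainate receptors, had the largest fold change. Its values were 25.4, 27.8 and 26.0 CPM in Model and 24.2, 66.4 and 44.5 CPM in MAN@SKI II, against 30.1, 36.5 and 22.3 CPM in Con. Its treated libraries spread from below Model to far above it, and the log2 fold change of 0.77 ± 0.34 (unadjusted p = 0.0579) was 0.38 without MAN@SKI II 2.

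Neto1, the hippocampal relative of Neto2 that binds kainate and NMDA receptors, also rested on that library. It was at 203, 218 and 223 CPM in Con, 265, 225 and 261 CPM in Model and 248, 376 and 249 CPM in MAN@SKI II. Without MAN@SKI II 2 its log2 fold change under treatment went from 0.22 to -0.01. In the opposite direction, Cacng8 was at 157, 110.1 and 153 CPM and Cnih2 at 454, 443 and 507 CPM in MAN@SKI II, with the lowest value of each in MAN@SKI II 2. Their log2 fold changes against Model were -0.22 ± 0.12 and -0.13 ± 0.06 (SE), and -0.08 and -0.10 without that library. The core subunits Gria1, Gria2, Grin2a and Grin2b had 0.04, 0.03, 0.00 and -0.01, and without MAN@SKI II 2 they had -0.01, -0.09, -0.03 and -0.08. Grin1 had -0.17 ± 0.17, -0.09 without MAN@SKI II 2, and -0.32 to -0.07 over the libraries left out in turn. Over the 35 genes, 26 fold changes were above 0 and 9 below (median 0.05). Without MAN@SKI II 2 this balance turned, with 15 above 0 and 20 below (median -0.02). There were 4 genes whose groups did not overlap (Gria4, Grm4, Cacng2 and Cacng7, all higher with treatment), against 9.43% of all genes.

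**Figure D3:**
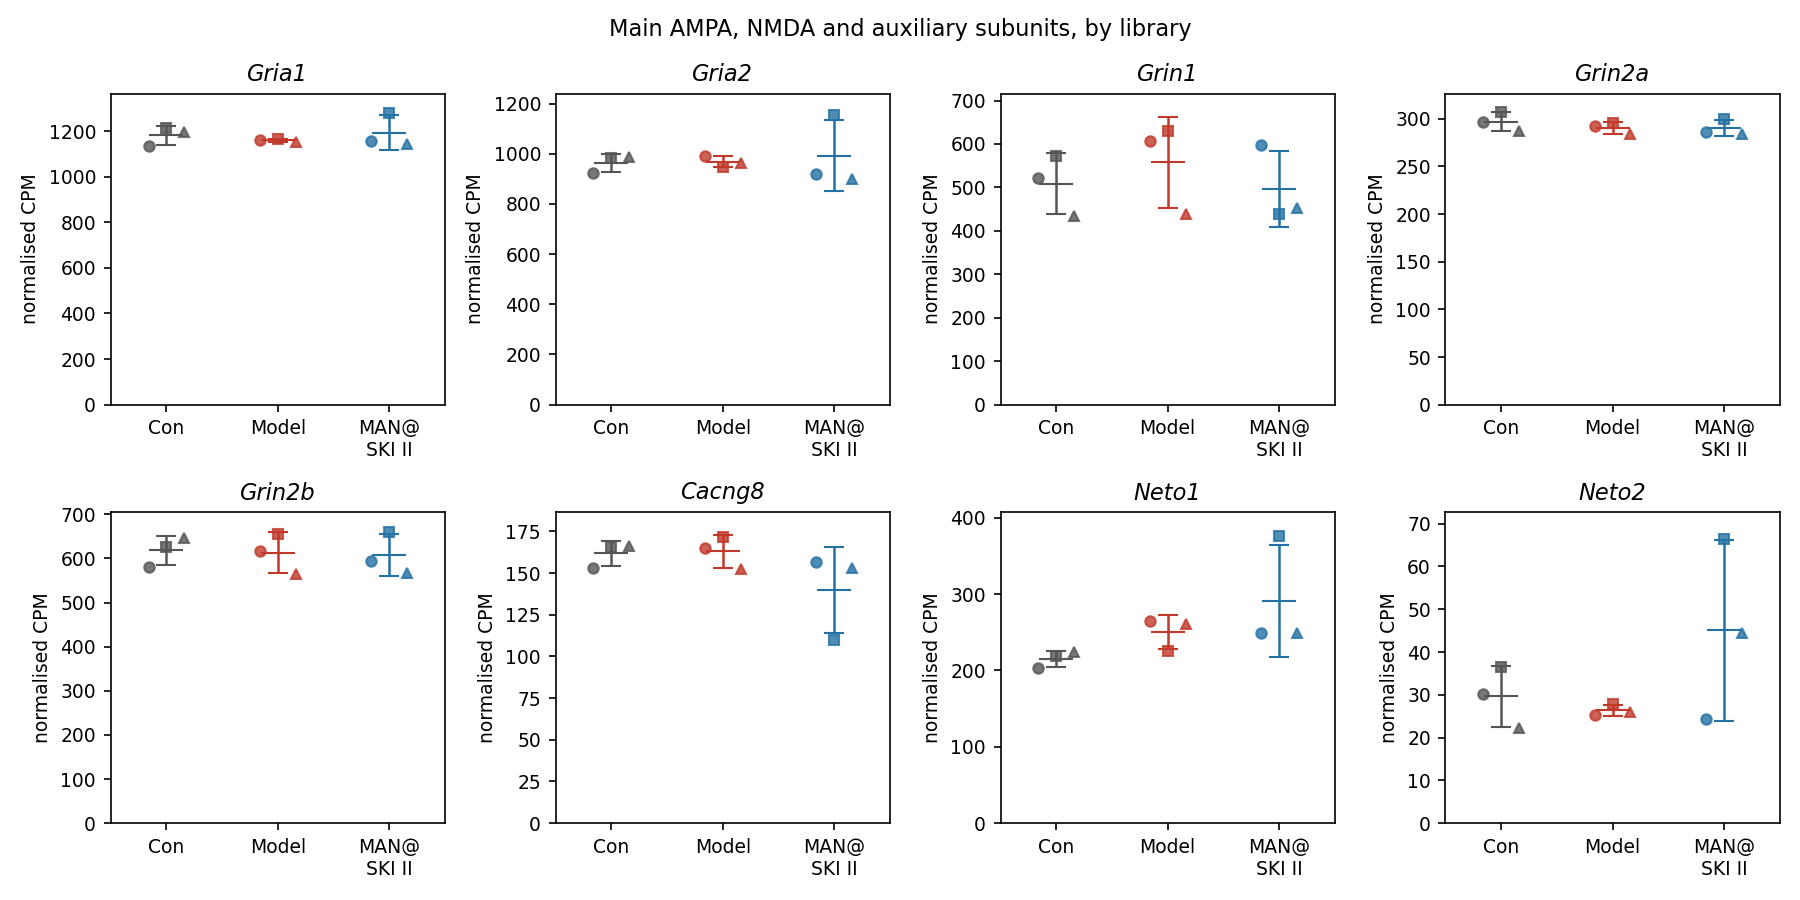
Normalised level (CPM) by library for Gria1, Gria2, Grin1, Grin2a, Grin2b, Cacng8, Neto1 and Neto2, with the mean (wide bar) and SD (whiskers) of 3 libraries per group and circles, squares and triangles for replicates 1, 2 and 3. The treated square, MAN@SKI II 2, is the highest point for Gria1, Gria2, Grin2b, Neto1 and Neto2 and the lowest for Cacng8.

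Treated BTBR mice set against C57BL/6J mice differed in 2 of 35 genes, Grin2d (log2 fold change 0.44 ± 0.08 (SE), adjusted p = 0.00603) and Cacng5 (0.66 ± 0.16, adjusted p = 0.0278), both higher, where edgeR called 8.13% of all genes (3.43% higher and 4.70% lower). limma-voom called the same 2 genes (7.91% of all genes) and DESeq2 3 (9.59%), with Neto1 added. An unadjusted p under 0.05 was found for 7 listed genes (21.6% of all genes), and 10 had groups that did not overlap (27.3%). Cacng5 lost this call without Con 2, Con 3 or MAN@SKI II 1, and also with the 6 compared libraries alone. It was called in 13 of 17 alternatives. Grm2 (-0.30 ± 0.09, adjusted p = 0.0820) and Grik2 (-0.21 ± 0.09, adjusted p = 0.171) were not called, while their libraries still did not overlap with Con. Without MAN@SKI II 2, Grik2 was called (-0.28, adjusted p = 0.0435). Neto1 had 0.44 ± 0.15, with an adjusted p of 0.126 in edgeR and 0.0479 in DESeq2, and 0.21 without MAN@SKI II 2. For Model against Con, Neto1 had 0.22 ± 0.15 (adjusted p = 0.503), and edgeR called it when MAN@SKI II 2 was left out of the shared fit (0.22, adjusted p = 0.0409). Neto2 was called against Con only without MAN@SKI II 1 (0.90, adjusted p = 0.0445). Both comparisons with Con use the same 3 Con libraries.

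**Figure D4:**
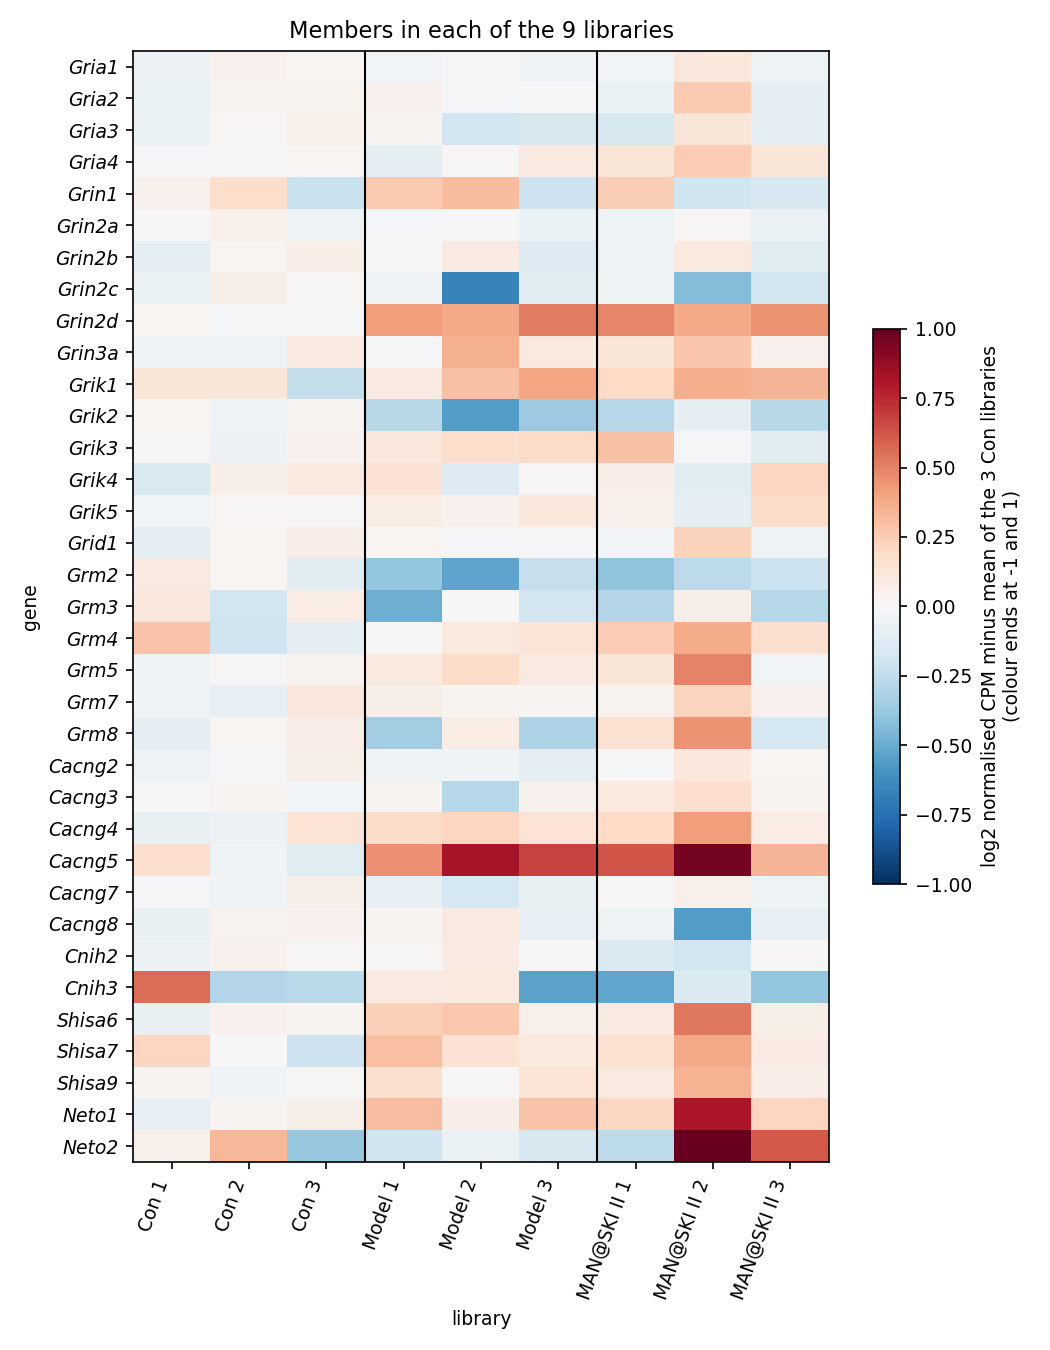
log2 normalised CPM of each of the 35 tested genes in the 9 libraries, minus the mean of the 3 Con libraries; rows are grouped by family, red is above and blue below Con, and colours end at -1 and 1. Grin2d and Cacng5 are red and Grik2 and Grm2 blue in every BTBR library, and in the rows of Neto1 and Neto2 the deepest red is in MAN@SKI II 2.

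The make-up of the receptor families can be read from the FPKM shares and ratios in each library, given here as descriptions. The log2 ratio of Gria2 to Gria1, which bears on the calcium permeability of AMPA receptors, was -1.16 ± 0.02 (SD, n = 3) in Con, -1.13 ± 0.04 in Model and -1.14 ± 0.11 with treatment. The log2 ratio of Grin2a to Grin2b, which grows as synapses mature, was -0.78 ± 0.10, -0.80 ± 0.08 and -0.79 ± 0.07 in the same order. In neither ratio were the groups apart. The log2 ratio of Grik2 to Grik1 was 2.43, 2.35 and 2.79 in Con, 2.16, 1.68 and 1.77 in Model and 2.04, 2.08 and 1.91 with treatment. All BTBR libraries lay below all Con libraries in this ratio, the numerator being 1 of the genes called above. For Grm5 to Grm3 it was 0.89, 1.23 and 0.99 in Con and 1.62, 1.23 and 1.31 in Model, so that Con 2 and Model 2 met.

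Within the families, the share of Grin2d in the NMDA subunit FPKM was 2.69% ± 0.162 (SD, n = 3) in Con, 3.58% ± 0.503 in Model and 3.74% ± 0.215 with treatment. Even where it was higher, Grin2d stayed a minor subunit beside Grin2a and Grin2b. Cacng5 made up 1.67% ± 0.229 of the TARP FPKM in Con, 2.68% ± 0.367 in Model and 2.71% ± 0.647 with treatment, the smallest share of the 6 TARPs in each group. The share of Grik2 in the kainate subunits was 8.92% ± 0.355, 6.58% ± 0.486 and 7.54% ± 1.15, and that of Grm2 in the metabotropic receptors 18.5% ± 1.47, 14.7% ± 1.72 and 14.8% ± 1.99. Among the AMPA subunits, the share of Gria1 lay between 57.9% and 60.4% in all 9 libraries.

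**Figure D5:**
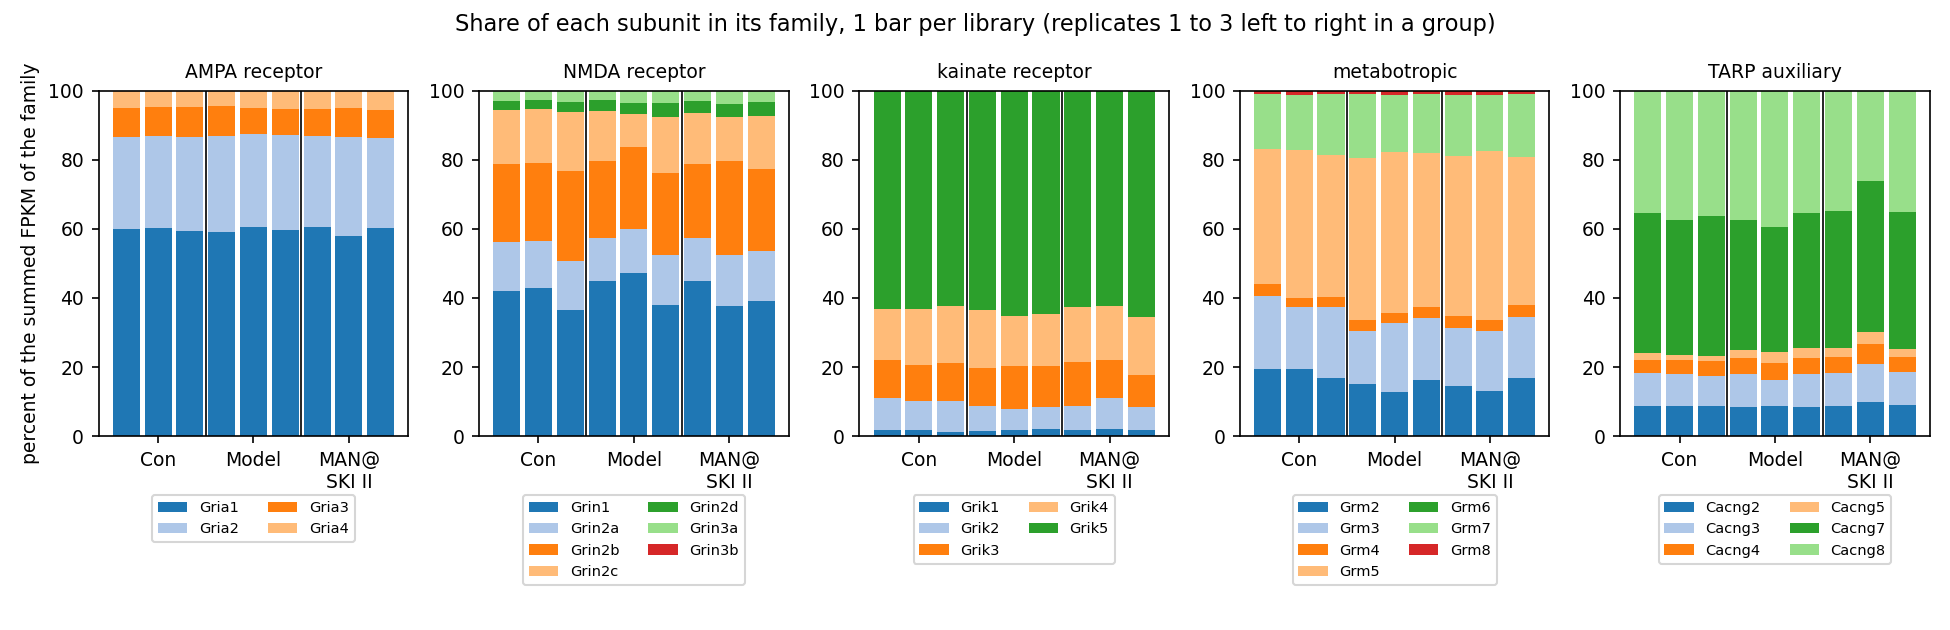
Percent of the summed FPKM of a family held by each subunit, 1 stacked bar per library, for AMPA, NMDA and kainate receptor subunits, metabotropic receptors and TARPs. Bars within a group are replicates 1 to 3, and Gria1 stays between 57.9% and 60.4% in all 9 bars of the AMPA panel.

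Around the receptors, 65 other genes of the glutamate synapse (transporters and metabolism, scaffolds, trafficking and assembly factors, RNA editing and splicing factors) were tested, and 4 were called between Con and Model (6.15%, against 7.64% of all genes). Adarb2 encodes ADAR3, a brain member of the ADAR family without known editing activity. It was at 33.4, 32.2 and 28.4 CPM in Con, 55.3, 49.1 and 57.2 CPM in Model and 62.2, 71.1 and 57.3 CPM in MAN@SKI II. The BTBR libraries were all above the Con libraries, with a log2 fold change of 0.78 ± 0.10 (SE, adjusted p = 0.000765) in Model. Adarb1, the enzyme that edits the Q/R codon shown above and named here after its values were seen, had 0.20 ± 0.08 (adjusted p = 0.212). Nova2, a neuronal splicing regulator, was at 145, 153 and 153 CPM in Con, 196, 192 and 191 CPM in Model and 184, 178 and 189 CPM in MAN@SKI II (0.36 ± 0.05 (SE) in Model, adjusted p = 0.00199). Its groups were apart in each comparison, with the treated libraries between Con and Model. Slc17a8, the vesicular glutamate transporter VGLUT3, was at 7.61, 6.66 and 6.29 CPM in Con, 9.77, 10.1 and 9.48 CPM in Model and 7.77, 9.41 and 10.5 CPM in MAN@SKI II (0.51 ± 0.14 (SE) in Model, adjusted p = 0.0457), and the call was lost when any 1 Con or Model library was left out.

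C1ql2 encodes a secreted C1q-like protein of mossy fibres that, in mouse, binds kainate receptors. It was at 76.3, 86.0 and 81.1 CPM in Con, 42.8, 31.3 and 45.6 CPM in Model and 39.4, 32.0 and 43.3 CPM in MAN@SKI II. No BTBR library reached the Con range, and the log2 fold change in Model was -1.02 ± 0.14 (SE, adjusted p = 0.00145). C1ql2 is also 1 of the 9 dentate granule cell markers whose levels are given above. Frrs1l, a factor for the assembly of AMPA receptors, was at 438, 461 and 473 CPM in Con, 193, 295 and 281 CPM in Model and 183, 355 and 282 CPM in MAN@SKI II. It was lower in every BTBR library, and its log2 fold change of -0.83 ± 0.25 had an adjusted p of 0.102 in edgeR, 0.00167 in DESeq2 and 0.0390 in limma-voom. With the 6 compared libraries alone, or without MAN@SKI II 2, edgeR called 8 of the 65 genes, adding Glud1, Rbfox1, Slc38a2 and Slc38a3.

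Treatment gave no call among these 65 genes by edgeR, DESeq2 or limma-voom (4 had an unadjusted p under 0.05 in edgeR). The smallest p belonged to Lrrtm2, a postsynaptic adhesion protein that holds AMPA receptors at synapses. Lrrtm2 was at 60.0, 61.7 and 47.1 CPM in Con, 44.1, 52.3 and 44.0 CPM in Model and 68.2, 67.4 and 63.5 CPM in MAN@SKI II. The treated libraries were above both other groups, with a log2 fold change of 0.50 ± 0.11 (SE) against Model (unadjusted p = 0.000748, adjusted p = 0.914 in edgeR and 0.0509 in DESeq2). The scaffold proteins Dlgap4 (0.20 ± 0.07, unadjusted p = 0.0217) and Dlgap1 (0.19 ± 0.07, unadjusted p = 0.0243) came next. Against Con, treated BTBR mice differed in 5 of the 65 genes (7.69%, against 8.13% of all genes), with Adarb2 (log2 fold change 1.02 ± 0.10 (SE)), Nova2 (0.29 ± 0.05) and Glud1 (0.20 ± 0.05) higher and C1ql2 (-1.08 ± 0.14) and Glul (-0.25 ± 0.06) lower. Glud1, the mitochondrial glutamate dehydrogenase, was at 274, 278 and 279 CPM in Con, 313, 309 and 301 CPM in Model and 309, 319.9 and 322 CPM in MAN@SKI II, with every BTBR library above Con. Glul, the astrocytic glutamine synthetase, was at 1393, 1385 and 1229 CPM in Con, 1228, 1138 and 1238 CPM in Model and 1129, 1129 and 1113 CPM in MAN@SKI II, where the treated libraries were below all others.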

How the data were processed

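Poly(A) RNA from 9 hippocampi was sequenced as paired-end reads, per the labels. Deposited were the authors' raw read counts and FPKM values per gene, per the file headers, and each FPKM equals the count over a fixed gene length and the library total. The submitters' processing notes list HISAT2 2.0.4, StringTie 1.3.3b, edgeR 3.2.0, Bowtie2 and GRCm39; for the role of each, the counter, the annotation release and strandedness, the sources used here give nothing. Totals were 14751054 to 18827093 counts, and floors of 3 counts cover counting error only.

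Groups follow the sample titles. Counts were tested with edgeR 4.0.16 in R 4.3.3 (filterByExpr, 17550 genes; TMM factors 0.960 to 1.01; robust quasi-likelihood F test, two-sided, group as the only term, all 9 libraries sharing the spread). Calls required an adjusted p (Benjamini-Hochberg, across the whole table tested) under 0.05; adjusted p-values are edgeR's unless DESeq2 1.42.0 or limma-voom (limma 3.58.1) is named. Levels are TMM-normalised CPM, and shares and ratios use the deposited FPKM without a test. The 37 genes, the other lists and the markers were chosen with earlier results of these data known. Values per library are given for listed genes called by any of the 3 tools, 9 core subunits and the 3 smallest p-values per comparison, and other tested genes by their fold change; of the other synapse genes, those called are named. Copies were sought with BLAST 2.17.0 among GENCODE M21 transcripts (GRCm38), and figures drawn in Python 3.11.15. The code was tested on simulated counts. Alternatives were RLE factors, no factors, no filter, 1 CPM in 3 libraries, both other tools, the 6 compared libraries, the replicate number as a term and leaving out each library.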

Additional observations from a re-analysis of the deposited data

How the results depend on the processing

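With 3 libraries per group, a median standard error of 0.096 on the log2 scale limits which fold changes of the listed genes could be called. Of the 4 listed genes called in Model against Con, Grin2d was called in 17 of 17 alternatives, Grik2 and Cacng5 in 13 each and Grm2 in 12. Leaving out single libraries gave 1 to 5 listed genes called in Model against Con, 0 in each case in MAN@SKI II against Model and 1 to 3 in MAN@SKI II against Con, where the 6 compared libraries alone gave 1. Over all genes the same range was 830 to 2226 in Model against Con, 0 to 9 in MAN@SKI II against Model and 857 to 1633 in MAN@SKI II against Con. With the 6 compared libraries alone, 2073 genes were called in Model against Con, among them 8 of the 65 other glutamate synapse genes (3 to 8 when single libraries were left out). In MAN@SKI II against Model, 1 gene was called without factors, 1 without a filter, 1 with the 6 compared libraries and 15 by DESeq2. The cause of these shifts was not tested.

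Deviations of same-numbered libraries correlated at -0.064 to 0.052, and those of differently numbered libraries at -0.064 to 0.087. The replicate numbers here are those of the sample titles. The library names carry other numbers for some samples, and pairing by those was not examined. With the replicate number as a block, 1044 genes were called in Model against Con, 1 in MAN@SKI II against Model and 1134 in MAN@SKI II against Con, and of the listed genes 3, 0 and 2; Grm2 was not called (adjusted p = 0.0617).

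Fold changes near 0 turned sign under some settings, none of them called. In MAN@SKI II against Model, the log2 fold change of Grin2d was -0.020 without factors and -0.012 without a filter, and that of Cacng5 was -0.024 without factors, -0.014 without a filter, -0.019 in limma-voom and -0.011 with the replicate block. When single libraries were left out, the fold changes in Model against Con ranged from -0.040 to 0.050 for Gria4, -0.34 to 0.011 for Neto2, -0.026 to 0.023 for Gria2, -0.066 to 0.043 for Grin2b and -0.029 to 0.057 for Cacng8. In MAN@SKI II against Model they ranged from -0.027 to 0.039 for Grin2d, -0.17 to 0.14 for Cacng5, -0.011 to 0.32 for Neto1, -0.013 to 0.070 for Gria1, -0.089 to 0.10 for Gria2, -0.028 to 0.0090 for Grin2a, -0.075 to 0.040 for Grin2b and -0.076 to 0.19 for Grm5. The median over the 35 genes ranged from -0.0047 to 0.040 in Model against Con and from -0.023 to 0.092 in MAN@SKI II against Model, turning without Con 1 in the first and without MAN@SKI II 2 in the second. These medians and the shares by the longest coding transcript were added after seeing the data.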

Other observations

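Tested genes within 1 Mb of the listed genes were counted as a description of RNA differences near these genes. No strain genotypes were used. The windows were summed, so a gene near more than 1 listed gene was counted more than once, as around Cacng7 and Cacng8. Cacng4 and Cacng5 are neighbours of each other, so the 2 sums that follow are not separate. In Model against Con, edgeR called 16 of 145 entries in the windows of the 4 called receptor genes (11.0%). In the windows of the other listed genes it called 59 of 758 entries (7.78%), and over all genes tested 7.64%. Around Grm2 12 of 49 neighbours were called, around Grin2d 3 of 83, around Cacng5 1 of 11 and around Grik2 0 of 2. The loci with called neighbours include that of Cacng8, with 10 of 33, although Cacng8 itself had a log2 fold change of 0.01. What the neighbours share with the receptor genes was not tested.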
